A study of Mus musculus with 20 samples.

Results

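Transcripts of 10 genes of the ATF4 amino acid stress response were followed through 20 mouse liver libraries: Atf4, Atf5, Trib3, Sesn2, Asns, Psat1, Phgdh, Chac1, Fgf21 and Gdf15. They are 10 of the 55359 gene identifiers in the deposited count files and were taken by name as known members of the pathway, and all 10 passed the filter on low counts. Phgdh held 0 to 8 reads in each library without tumour and passed only through the tumour libraries, where it is high. The study asked how treadmill running bears on liver tumours in obese mice that had received a carcinogen. All animals were male and wild type at 35 weeks of age, of a strain the labels spell C56BL/6, and all carried a neonatal skin application of DMBA (7,12-dimethylbenz(a)anthracene), 50 µL of a 0.5% solution on postnatal day 4 to 5. There were 5 groups of 4 libraries. Normal-diet liver came from non-exercised mice on a chow with 12% of calories from fat, 29% from protein and 59% from carbohydrate. The other groups were a non-tumour piece and a tumour piece from mice on a high-fat diet (60% of calories from fat, 20% from protein and 20% from carbohydrate), in a non-exercised and an exercised arm. High-fat mice were split into these arms at 20 weeks of age, with a body weight of at least 45 g. No such weight is given for normal-diet mice, so the diet comparison also holds this difference. Exercised mice were trained for 5 weeks from 10 m/min and then ran at 18 m/min for 20 min on 5 days a week for 10 weeks. Both high-fat arms were killed on 1 day within 2 h of the last run. When in the day mice were killed, and on which day those on the normal diet, is not stated in the labels, and the diets differ in protein and carbohydrate as well as in fat. DMBA was given to every group, so no library shows liver without it. Titles number the mice 1 to 4 in each group; a tumour and a non-tumour piece with the same number in an arm were read as pieces of 1 mouse, and p-values rest on the spread among these samples alone.

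ATF4 is the transcription factor at the end of the integrated stress response. Kinases that sense uncharged transfer RNA, unfolded protein in the endoplasmic reticulum, viral RNA or haem shortage phosphorylate the initiation factor eIF2alpha, which lowers protein synthesis as a whole but lets ribosomes translate the Atf4 messenger RNA. ATF4 protein then pairs with C/EBP partners on a composite DNA site and raises genes for amino acid synthesis, amino acid uptake and transfer RNA charging, together with feedback inhibitors and secreted hormones. Protein and phosphorylation were not measured here, and the level of the Atf4 transcript alone does not give the activity of the factor. In pieces of whole tissue, fewer cells of a type and less RNA per cell cannot be told apart.

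The composite site is best shown in the promoters where it was found. The letters TGATGNAA were searched on both strands from 250 bases before to 50 bases after each start site, in RefSeq promoter sequences of build GRCm38.p6, in which all 10 genes had at least 1 window (13 windows in all). The 3 stretches below lie before the start sites of Asns (chr6:7693210-7693262, minus strand), Chac1 (chr2:119351019-119351086, plus strand) and Fgf21 (chr7:45615592-45615659, minus strand). They are printed 5′ to 3′ on the strand of the gene, and capitals mark the match. In Chac1 and Fgf21 the match reads on the opposite strand, so its reverse complement is seen.
Asns: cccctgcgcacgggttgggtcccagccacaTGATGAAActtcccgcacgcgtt
Chac1: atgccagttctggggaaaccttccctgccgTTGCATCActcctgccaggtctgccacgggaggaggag
Fgf21: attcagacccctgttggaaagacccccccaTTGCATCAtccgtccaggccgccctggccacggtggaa
Counted from the start site, the match began at position -23 in Asns, -193 in Chac1 and -139 in Fgf21, and a further match lay at position 15 in Trib3, after the start. So 4 of the 10 genes held the composite letters, which occurred in 4.51% of 27025 genes and in 3.97% of 32851 windows of the same length of 300 bases. The cyclic AMP response element core TGACGTCA, searched in the same way, was in 0 of the 10 genes and in 1.79% of windows. These are matches of letters in 1 window per start site, and none was tested for binding.

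Each library held between 16471378 and 20271948 counted reads, and a gene at 1 CPM, the read count scaled to library size, held at least 15.7 reads. Log2 CPM of libraries of a group correlated at 0.934 to 0.990, and every pair within a group differed by more than sampling noise. All of the hepatocyte markers Alb, Apoa1, Apob, Ttr, Hnf4a, Cps1, Serpina1a, Tat and Cyp2e1 were detected in every library, tumours included. Of 7 markers of kidney tubule, pancreas and brain, Slc12a1 and Cpa1 were at 0 in 20 of 20 libraries, Umod and Snap25 in 19 and Prss2 in 15. The pancreatic elastase gene Cela1 and the glial gene Gfap were found in every library, with group means of 13.5 to 56.8 and 0.31 to 0.85 CPM. Values below are CPM with library sizes scaled by TMM (trimmed mean of M values). Changes are log2 fold changes ± SE from edgeR's quasi-likelihood test over 14428 genes, with 4 libraries in each group, and the threshold for a call was 0.05 on the p adjusted by Benjamini and Hochberg's method.

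On GRCm39, the build of the files, Atf4 lies at chr15:80139385-80141742, Atf5 at chr7:44461680-44466082, Trib3 at chr2:152179342-152185952 and Sesn2 at chr4:132219343-132237812. The enzyme genes are Asns at chr6:7675169-7693254, Psat1 at chr19:15882042-15924701, Phgdh at chr3:98220486-98247306 and Chac1 at chr2:119181710-119184862. The hormone genes are Fgf21 at chr7:45263310-45264914 and Gdf15 at chr8:71082043-71085106. Counts are of reads in exons. Atf5 overlaps Nup62 and Il4i1, and Psat1 overlaps Gm3329, each on the opposite strand, which the strand setting of the counting separates.

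The 10 transcripts differed widely in level. Per kilobase of exon (RPKM, which is CPM per kilobase), Atf5, a leucine zipper factor close to ATF4 that also serves mitochondrial stress, stood highest in all 5 groups, with group means of 200.4 (normal diet) to 323 (exercised tumours). Gdf15, a circulating factor that lowers appetite through a hindbrain receptor, had means of 17.05 to 42.9, and Atf4 itself had means of 28.8 to 46.1. At the other end, Phgdh, the enzyme that takes the first step of serine synthesis, had a mean of 0.0239 on the normal diet and 2.93 in non-exercised tumours. Psat1, which takes the second step, went from 0.116 to 10.4 between the same groups. The remaining genes had group means between 0.155 (Asns, exercised non-tumour liver) and 34.6 (Trib3, exercised tumours). As a ratio of the highest to the lowest group mean, Atf4 and Atf5 thus had the narrowest range of the 10 and the serine enzymes the widest.

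**Figure D1:**
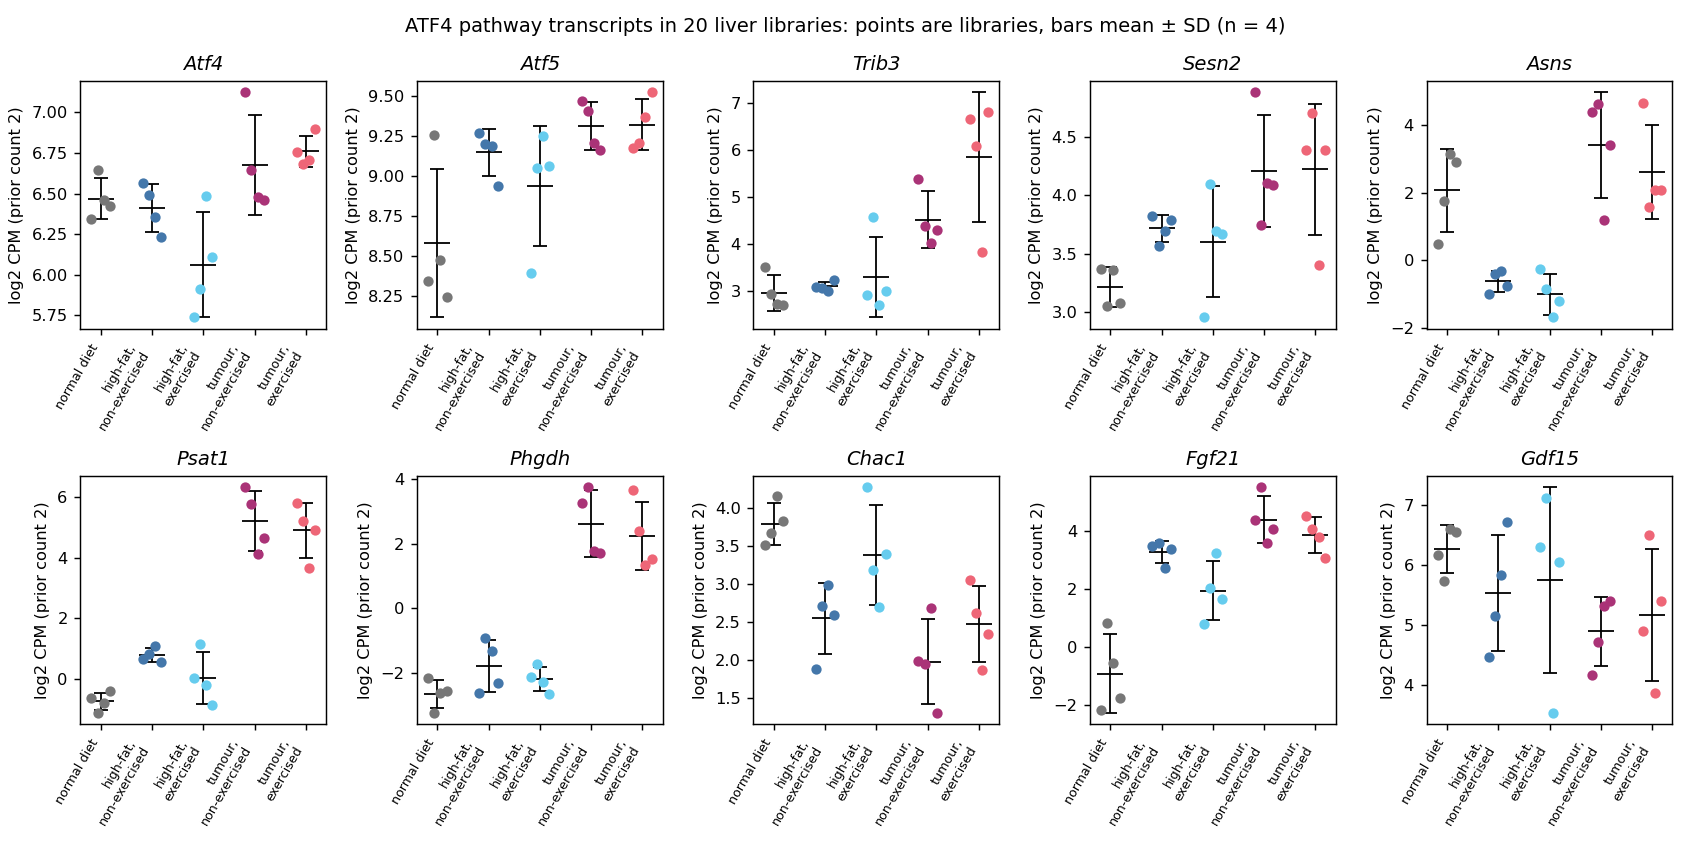
Level of each of the 10 transcripts in 20 libraries, as log2 CPM with a prior count of 2 (vertical axes, scaled per gene), by group (horizontal axis); points are libraries, bars the mean ± SD of 4. Psat1 and Phgdh form a low set of 12 libraries and a high set of 8 tumour libraries with no overlap, whereas Gdf15 spreads over all groups.

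The effect of diet was read in liver without tumour, non-exercised high-fat against normal diet. Of the 10 transcripts, 1 rose and 2 fell, and 5 had an unadjusted p under 0.05. Among all genes tested 14% rose and 11.9% fell, and 5631 of 14428 had an unadjusted p under 0.05, so that the count is near the background. With upper-quartile scaling the genes split into 2513 higher and 1140 lower rather than 2025 and 1715. The median change of the 10 was 0.30, against 0.01 over all genes. Whether the values of the diets overlap is told below for single genes. The share of all genes without overlap is not given here, so this describes a gene and adds nothing to its test.

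Fgf21 is a hormone that the liver secretes in fasting, protein restriction and overfeeding. It was at 0.117, 1.69, 0.573 and 0.191 CPM in normal-diet mice 1 to 4 and at 11.05, 11.9, 6.55 and 10.4 CPM in non-exercised non-tumour liver. Every high-fat library lay above every normal-diet library, and the change was 3.93 ± 0.68 (edgeR, adjusted p = 0.000846). Normal-diet mouse 2 is the highest of its group, and without it the change was 5.02.

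Asns makes asparagine from aspartate and glutamine and is among the best known ATF4 targets. Its level was 1.28, 3.26, 8.77 and 7.44 CPM on the normal diet and 0.393, 0.642, 0.695 and 0.484 CPM on the high-fat diet. The groups did not overlap, normal-diet mice differed among themselves more than 6-fold, and the fall was -3.21 ± 0.88 (adjusted p = 0.0142). In limma-voom, where each mouse was a random effect, the fall was -2.85 and did not pass (adjusted p = 0.194, the highest of all alternatives, which began at 0.000499). Chac1, which breaks down glutathione, was at 11.3, 12.6, 17.8 and 14.1 CPM and then at 3.59, 6.48, 7.84 and 5.95 CPM. Again no value was shared between the diets, and Chac1 fell by 1.22 ± 0.34 on the log2 scale (adjusted p = 0.0136).

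The 3 transcripts that passed therefore split by direction: the hormone rose while asparagine synthetase and the glutathione enzyme fell. The other 7 did not pass. Psat1 was at 0.349 to 0.636 CPM and then at 1.36 to 1.99 CPM, without overlap, with a change of 1.71 ± 0.74 (adjusted p = 0.0969). It passed with DESeq2 (adjusted p = 0.00966) and in a fit of only the 2 diet groups (adjusted p = 0.00103); all alternatives ran from that value to 0.457. Sesn2, a leucine sensor that restrains mTORC1, was at 8.20 to 10.2 CPM and then at 11.7 to 14.02 CPM, also without overlap (0.50 ± 0.27, adjusted p = 0.170), and it passed in the fit of only these groups (adjusted p = 0.00553; up to 0.350 in the others). Atf5 changed by 0.52 ± 0.20 (adjusted p = 0.0635). Normal-diet mouse 2 had 614 CPM of Atf5, where the other mice of the group had 303 to 356, and without it the change was 0.79 (adjusted p = 0.00367). Atf5 passed as well with upper-quartile scaling, limma-voom and DESeq2 (adjusted p = 0.0361 to 0.0428), and its highest adjusted p was 0.189. For Atf4 the difference was -0.06 ± 0.15 and for Trib3, a pseudokinase that binds ATF4 and damps it, 0.10 ± 0.53. Gdf15 differed by -0.52 ± 0.61, and Phgdh was near its detection limit, with 4 reads summed over normal-diet libraries and 17 over high-fat ones.

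Marker lists were called with the diet too, beside 14% of all genes that rose and 11.9% that fell. Of 7 macrophage genes, 6 rose, and the summed level was 20.2 to 27.6 CPM on the normal diet and 40.5 to 117 CPM on the high-fat diet. Of 7 Kupffer cell markers 3 rose and 0 fell, with summed levels of 202 to 291 CPM and then 376 to 458 CPM. Of 8 stellate cell markers 4 rose, of 5 erythroid markers 4 rose, of 6 sinusoidal endothelial markers 2 fell and of 4 B cell markers 1 fell. Of 9 hepatocyte markers 0 rose and 4 fell, with summed levels of 88600 to 101604 CPM on the normal diet and 63751 to 91306 CPM on the high-fat diet. The part of these cells in the changes of Fgf21, Asns and Chac1 was not tested.

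**Figure D2:**
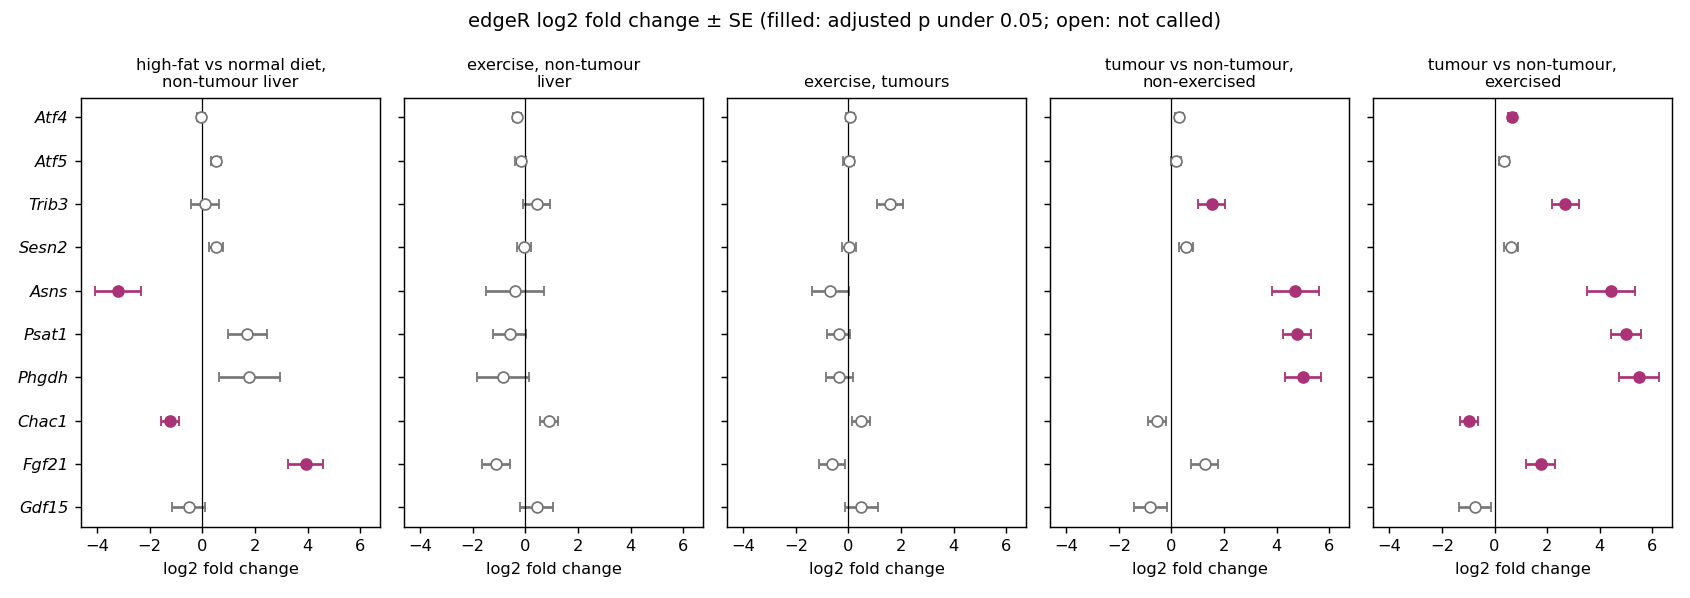
Log2 fold change ± SE (horizontal axis) of the 10 transcripts in 5 comparisons from edgeR; filled points passed at an adjusted p under 0.05 and open points did not. The serine and asparagine enzymes lie between 4.43 and 5.49 in both tumour comparisons, and no point is filled in either exercise comparison.

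Tumour pieces were compared with the non-tumour piece of the same arm. Overlap of values and the number of mice with the higher tumour are told below for single genes. Shares of all genes for either are not given here, so they describe a gene and add nothing to its test. In non-exercised mice 4 of the 10 transcripts rose and 0 fell, with 18% of all genes higher and 17.8% lower, and 6 of the 10 (6573 of the 14428 genes) had an unadjusted p under 0.05. In exercised mice 6 rose and 1 fell, with 18.6% of all genes higher and 16% lower. The median change was 0.90 in the non-exercised and 1.21 in the exercised arm, against -0.01 and 0.01 over all genes. In both arms the rise was led by the enzymes that make serine and asparagine. Phgdh is among them, and it passed the filter on low counts only through the tumour libraries, where it is high. Its rise was thus set by how it entered, and the counts and medians of the 10 include it.

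Psat1 was at 1.46, 1.66, 1.99 and 1.36 CPM in the non-tumour pieces of non-exercised mice 1 to 4 and at 80.0, 54.3, 17.4 and 24.9 CPM in their tumours. In the exercised arm it was at 0.911, 2.12, 0.756 and 0.433 CPM and then at 56.4, 37.4, 12.5 and 29.9 CPM. The lowest tumour was thus well above the highest non-tumour piece. Changes were 4.76 ± 0.54 (adjusted p = 5.19e-05) and 4.98 ± 0.57 (adjusted p = 5.08e-05), and within a mouse the tumour exceeded its own non-tumour piece by 3.07 to 5.79 on the log2 scale in all 8 pairs. Without overlap, the tumour would be the higher piece under any pairing. Leaving out exercised non-tumour mouse 2 gave 5.58 in the exercised arm.

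Phgdh was nearly silent outside tumours. It was at 0.0561, 0.428, 0.298 and 0.0968 CPM in non-exercised non-tumour liver and at 9.50, 13.2, 3.30 and 3.15 CPM in the tumours. Exercised mice had 0.122, 0.197, 0.101 and 0.0542 CPM and then 12.5, 5.08, 2.45 and 2.79 CPM. As with Psat1, no tumour value reached down to a non-tumour value. Summed reads were 17 against 558 in the non-exercised arm, a ratio of 32.5 (95% exact interval 20.1 to 56.1), and 9 against 398 in the exercised arm, a ratio of 45.5 (23.7 to 100.2); the intervals cover counting error only. The fitted changes were 5.01 ± 0.69 (adjusted p = 0.000101) and 5.49 ± 0.75 (adjusted p = 0.000108), the latter 4.77 without exercised tumour 1. A pseudogene of Phgdh exists in the mouse, and reads that match both copies would not be counted, so these levels may be too low.

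Asns rose as steeply. Non-tumour pieces of non-exercised mice, given above, lay under 0.7 CPM, and their tumours were at 21.0, 24.7, 2.18 and 10.7 CPM. Exercised mice had 0.729, 0.443, 0.202 and 0.325 CPM without and 25.4, 2.91, 4.10 and 4.16 CPM with tumour. Groups were separate in both arms, but the tumours of an arm spanned a range of more than 8-fold. The changes were 4.70 ± 0.89 (adjusted p = 0.000817) and 4.43 ± 0.92 (adjusted p = 0.00189). Without exercised tumour 1 the latter was 3.14 (adjusted p = 0.00814), and in limma-voom, with a random effect for the mouse, it was 3.84 and did not pass (adjusted p = 0.0630, the highest of all alternatives; the lowest was 9.86e-07).

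Trib3 was at 8.41, 8.30, 7.89 and 9.24 CPM in non-exercised non-tumour liver and at 41.7, 20.6, 16.1 and 19.5 CPM in the tumours (1.53 ± 0.52, adjusted p = 0.0287). In exercised mice it was at 7.41, 23.6, 6.40 and 7.85 CPM and then at 100.3, 67.3, 14.02 and 112 CPM (2.69 ± 0.52, adjusted p = 0.00124). In the exercised arm non-tumour mouse 2 lay above tumour 3, and in each of the 8 mice the tumour was the higher piece. The call in the non-exercised arm was close to the threshold. It was lost with the mouse as a fixed block (1.43, adjusted p = 0.0523), as a random block in limma-voom (1.42, adjusted p = 0.0517), without a filter on low counts (adjusted p = 0.0774), without any 1 of non-tumour mice 1, 2 and 3 (adjusted p = 0.0620 to 0.0635) and without tumour 1 (1.17, adjusted p = 0.114). Over all alternatives the adjusted p ran from 0.00471 to 0.114. In the exercised arm leaving out non-tumour mouse 2 gave 3.33.

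Atf4 itself moved little. It was at 94.4, 90.0, 81.8 and 75.1 CPM in non-tumour and 139, 99.9, 89.0 and 87.9 CPM in tumour pieces of non-exercised mice, which overlap (0.29 ± 0.15, adjusted p = 0.149), although the tumour was the higher piece in 4 of 4 mice, by 0.12 to 0.56. In exercised mice it was at 53.2, 60.2, 89.6 and 68.9 CPM and at 108, 103, 105 and 119 CPM. These did not overlap, the tumour was again higher in 4 of 4 mice, and Atf4 rose by 0.68 ± 0.15 (adjusted p = 0.00286). The rise of the factor's transcript was thus under 1 on the log2 scale where those of Psat1, Phgdh and Asns were over 4. Atf5 did not pass in either arm (0.16 ± 0.20 and 0.35 ± 0.20), with the tumour as the higher piece in each of the 8 mice, by 0.022 to 0.79. Neither did Sesn2 (0.55 ± 0.26, adjusted p = 0.108, and 0.63 ± 0.26, adjusted p = 0.0684). Sesn2 passed in the exercised arm without non-tumour mouse 2 (adjusted p = 0.0320) or without tumour 3 (adjusted p = 0.0108), and over all alternatives the adjusted p was at most 0.215. The extent of Sesn2 overlaps that of Gm12981 on the same strand. Reads over exons of both would not be counted, but whether their exons overlap was not checked.

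Of the hormones, Fgf21 was higher in the tumour of each of the 8 mice. Non-exercised tumours were at 21.0, 45.4, 11.9 and 16.9 CPM, against 11.05, 11.9, 6.55 and 10.4 CPM without tumour, so that the lowest tumour stood only just above the highest non-tumour piece. That change did not pass (1.26 ± 0.51, adjusted p = 0.0663), but did so in a fit of only these groups (adjusted p = 0.0432), in limma-voom with a random effect for the mouse (adjusted p = 0.0257) and without tumour 3 (1.48, adjusted p = 0.0328), with 0.298 as the highest value of any alternative. Exercised mice had 1.64, 4.04, 9.53 and 3.09 CPM without and 23.0, 16.8, 13.97 and 8.32 CPM with tumour, with non-tumour mouse 3 above tumour 4. Fgf21 rose there by 1.75 ± 0.54 (adjusted p = 0.0189). It no longer passed without non-tumour mouse 1 (1.47) or 4 (1.59), without tumour 1 (1.499), or without a filter on low counts (1.74), at adjusted p = 0.0567 to 0.0624; without non-tumour mouse 3 the value was 2.37 (adjusted p = 0.00586, the lowest). Gdf15 went the other way in most mice without passing (-0.80 ± 0.62 and -0.74 ± 0.61, adjusted p = 0.329 and 0.374), and was lower in the tumour of 4 of 4 non-exercised and 3 of 4 exercised mice.

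Chac1 differed from the other enzymes. Non-exercised tumours had 3.88, 3.75, 6.32 and 2.38 CPM, within reach of the 3.59 to 7.84 CPM of the non-tumour pieces (-0.55 ± 0.35, adjusted p = 0.231). Exercised mice had 19.1, 8.96, 6.40 and 10.4 CPM without and 8.23, 6.05, 3.55 and 4.95 CPM with tumour, and each tumour was below its own non-tumour piece. The fall was -0.98 ± 0.34 (adjusted p = 0.0325). It was -0.60 (adjusted p = 0.165) without exercised non-tumour mouse 1, whose 19.1 CPM is the highest value of the group. The call was also lost without any 1 of exercised tumours 2, 3 and 4 (adjusted p = 0.0568 to 0.0774), without a filter on low counts (adjusted p = 0.0731) and in a fit of only these groups (adjusted p = 0.0824); the lowest adjusted p of any alternative was 0.0121.

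**Figure D3:**
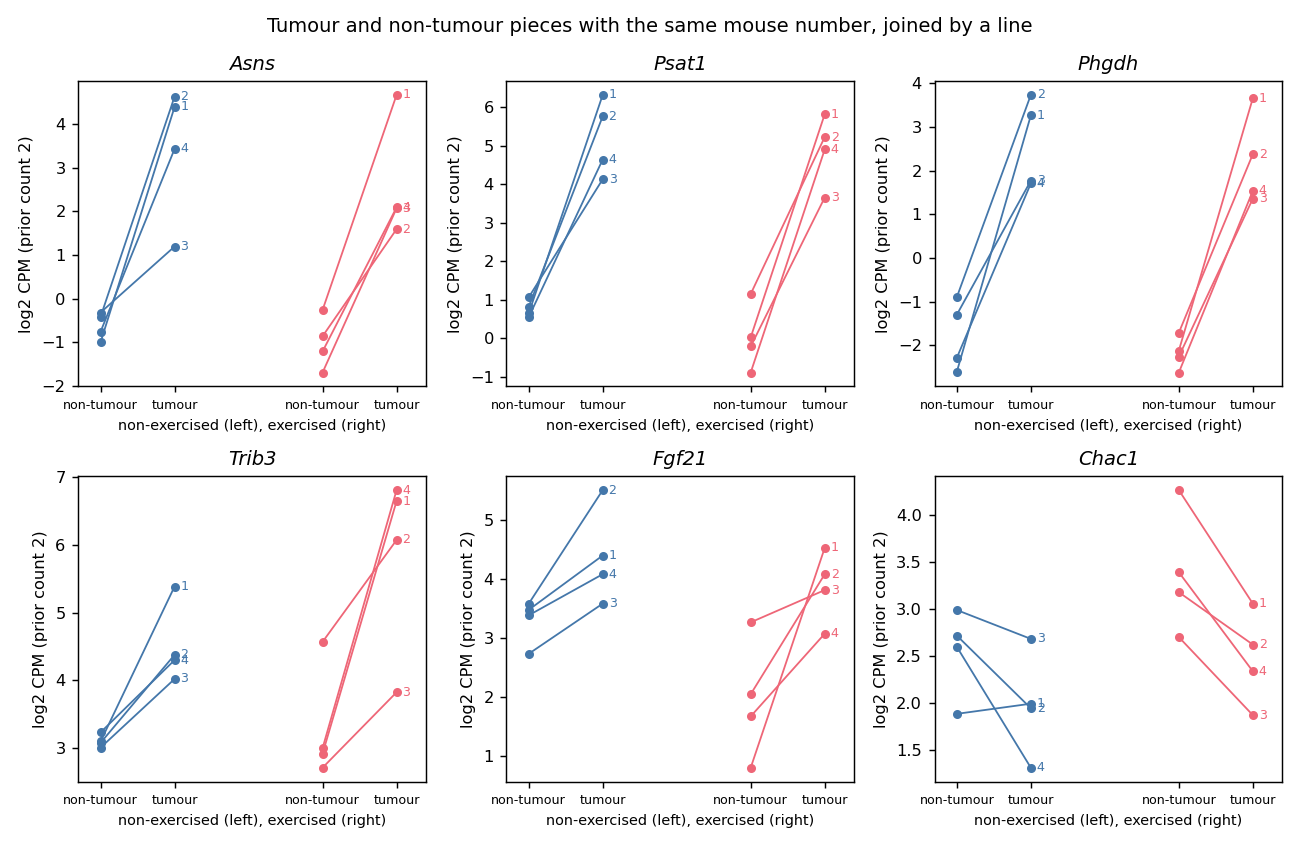
Log2 CPM (vertical axis, prior count 2) of 6 transcripts in the non-tumour and tumour piece of each mouse (horizontal axis), joined by lines and numbered by mouse, non-exercised on the left and exercised on the right. For Asns, Psat1, Phgdh, Trib3 and Fgf21 the line goes up in all 8 mice, and for Chac1 it goes down in 7. For Asns, Psat1 and Phgdh the groups do not overlap, so lines would go up under any pairing.

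Markers of other cells were called between pieces as well. Of all genes 18% were higher and 17.8% lower in tumours without exercise, and 18.6% and 16% with it. Of 7 bile duct markers 3 rose and 1 fell in the non-exercised arm and 3 rose and 0 fell in the exercised arm. Spp1 and Sox9 rose in both arms, and the fallen gene was Krt19 (-1.12 ± 0.39, adjusted p = 0.0332). The summed level of the 7 markers was 62.6 to 196 CPM in non-exercised non-tumour liver, 393 to 1493 CPM in the tumours, 52.6 to 134 CPM in exercised non-tumour liver and 119 to 1470 CPM in those tumours. Most of the mean sum in tumours was Spp1, with group means of 862 and 600.4 CPM. The keratins Krt7 and Krt19 had group means of 0.59 to 0.65 CPM in tumours and 0.66 to 1.29 CPM in non-tumour pieces of these mice. Of 7 Kupffer cell markers, tumours of the non-exercised arm had 3 lower and those of the exercised arm 4 lower. Hepatocyte markers went both ways, with 3 of 9 higher (Alb, Apoa1 and Serpina1a in both arms) and 3 lower in non-exercised tumours, 3 higher and 2 lower in exercised ones, and medians of -0.02 in each. Their sum was 108784 to 234503 CPM in tumours against 63751 to 100265 CPM in non-tumour pieces on the high-fat diet. Of 6 sinusoidal endothelial markers 2 rose without and 3 with exercise, of 8 stellate cell markers 2 in each arm, of 7 macrophage markers 1 in each arm, and of 5 erythroid markers 1 fell in each arm. The stellate, macrophage and erythroid counts are near the shares of all genes. Cela1 rose by 1.65 ± 0.43 and 1.59 ± 0.43. Mitochondrially encoded genes took between 2.56 and 5.99% of the reads of a library, and 5 of 6 fell in non-exercised and 3 of 6 in exercised tumours. The part of any of these in the changes of the 10 transcripts was not tested.

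Tumours were far from alike. Psat1, Phgdh, Asns and Fgf21 each had their 3 highest tumour values in the same 3 of 8 tumours, namely non-exercised 1, non-exercised 2 and exercised 1. Trib3 had its highest values in exercised tumours 4, 1 and 2 and shared 1 of its top 3 with Psat1. Atf4, Atf5 and Sesn2 shared 2, Chac1 shared 1 and Gdf15 shared 0. Exercised tumour 3 was the lowest of 8 for Psat1, Phgdh, Trib3, Sesn2 and Gdf15, non-exercised tumour 4 for Atf4, Atf5 and Chac1, non-exercised tumour 3 for Asns and exercised tumour 4 for Fgf21. The tumours also differed in markers. Kupffer cell markers summed to 112, 113 and 202 CPM in those 3 tumours and to 133 to 524 CPM in the others. Hepatocyte markers summed to 155498 to 234503 CPM in those 3 and to 108784 to 195716 CPM in the others. The part of these cells in the order of tumours was not tested, and the share of all genes with the same top 3 is not given here. With 8 tumours and 10 genes this is a description, not a test.

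Exercise was compared in non-tumour and in tumour pieces, exercised against non-exercised mice on the high-fat diet. In non-tumour liver 0 of the 10 transcripts passed with edgeR, limma-voom or DESeq2, and 2 had an unadjusted p under 0.05. Among all genes 0.0139% were higher and 0% lower, and 1203 of 14428 had an unadjusted p under 0.05. Those 2 were Chac1 (0.90 ± 0.34, adjusted p = 0.441) and Atf4 (-0.33 ± 0.15, adjusted p = 0.585). Chac1 was at 6.40 to 19.1 CPM in exercised and 3.59 to 7.84 CPM in non-exercised mice, and Atf4 at 53.2 to 89.6 and 75.1 to 94.4 CPM, so that both overlap. Fgf21 was at 1.64 to 9.53 CPM in exercised against 6.55 to 11.9 CPM in non-exercised mice (-1.11 ± 0.54, adjusted p = 0.609). Of the exercised mice, 3 were below every non-exercised mouse for Fgf21 and mouse 3 was not. The other 7 genes had adjusted p of 0.879 to 0.980. Their SE show how little 4 mice a group could resolve, from 0.20 for Atf5 to 1.10 for Asns on the log2 scale.

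In tumours 0 of the 10 passed with any of these 3 tools, 1 (1252 of all genes) had an unadjusted p under 0.05, and 0.0208% of all genes were higher and 0% lower. The 1 gene was Trib3 (1.59 ± 0.50, adjusted p = 0.365). Of the exercised tumours, 3 had between 67.3 and 112 CPM, above the 16.1 to 41.7 CPM of all non-exercised tumours, and exercised tumour 3 with 14.02 CPM was below them. Over the alternatives the adjusted p of Trib3 ran from 0.0521, without that tumour, to 0.827. Asns differed by -0.68 ± 0.70, Fgf21 by -0.62 ± 0.51, Psat1 by -0.37 ± 0.43 and Phgdh by -0.35 ± 0.51, and adjusted p of the 9 genes other than Trib3 were 0.735 to 0.996.

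Whether the tumour difference depended on exercise was tested as an interaction. It was called for 0 of the 10 transcripts and for 0% of all genes in either direction, by edgeR, limma-voom and DESeq2, and 0 of the 10 (293 of all genes) had an unadjusted p under 0.05. The smallest p were those of Atf4 (0.39 ± 0.21) and Trib3 (1.16 ± 0.71), each with an adjusted p of 0.99998. The calls of Atf4, Fgf21 and Chac1 in the exercised arm alone therefore do not show a difference between the arms.

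Ordering the 5 group means of each transcript gave few steps that passed. For Psat1 and Phgdh the order was normal diet, exercised non-tumour, non-exercised non-tumour, exercised tumours and non-exercised tumours, and only the step from non-exercised non-tumour liver to exercised tumours passed (4.39 ± 0.54, adjusted p = 0.000101, and 4.65 ± 0.69, adjusted p = 0.000245). Of all genes 16.9% were higher across that step. For Fgf21 the order was the same and the step from normal diet to exercised non-tumour liver passed (2.82 ± 0.69, adjusted p = 0.0132), although normal-diet mouse 2 (1.69 CPM) lay above exercised mouse 1 (1.64 CPM). Of all genes 7.54% were higher there. Asns had another order: exercised and non-exercised non-tumour liver were lowest, normal-diet liver stood in the middle and tumours on top, and only the step between the diets passed. Normal-diet Asns (5.19 ± 3.51 CPM, SD, n = 4) did not differ beyond its spread from exercised tumours (9.15 ± 10.9 CPM; 0.81 ± 0.72, adjusted p = 0.368) or non-exercised tumours (14.6 ± 10.2 CPM; 1.495 ± 0.72, adjusted p = 0.0870). So Asns transcripts of tumours overlapped those of normal-diet liver, whereas Psat1 and Phgdh transcripts of tumours lay above every library without tumour. Chac1 and Gdf15 had their highest mean on the normal diet and their lowest in non-exercised tumours, and for Atf4, Atf5, Trib3, Sesn2, Chac1 and Gdf15 no neighbouring pair of groups passed. For some of these genes, groups further apart in the order did differ. Against the normal diet, non-exercised and exercised tumours were higher for Atf5 (0.68 and 0.69, adjusted p = 0.00776 and 0.00843). This held for Sesn2 (1.054 and 1.078, adjusted p = 0.00282 and 0.00295) and Trib3 (1.62 and 3.21, adjusted p = 0.0143 and 0.000148). Chac1 was lower in both (-1.77 and -1.295, adjusted p = 0.000353 and 0.00437), and Atf4 and Gdf15 passed in neither. Shares of all genes called in these tumour against normal-diet comparisons are not given here. The edgeR p of Trib3 in non-exercised tumours was 0.00630 before adjustment, so close to 0.0143 that a large share of all genes passed there. These calls therefore do not set the members apart from other genes.

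The rest of the pathway was read through 10 related lists with 139 genes that had an identifier (Ddit3 had none under that symbol). With edgeR 0 of these genes passed in either exercise comparison or in the interaction; at an unadjusted p under 0.05 the counts of a list ran up to 6, for the 13 tested amino acid transporters in non-tumour liver, where 1203 of all 14428 genes were under it. The lists were chosen with earlier results of these data known, so they describe the pathway and do not test it.

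**Figure D4:**
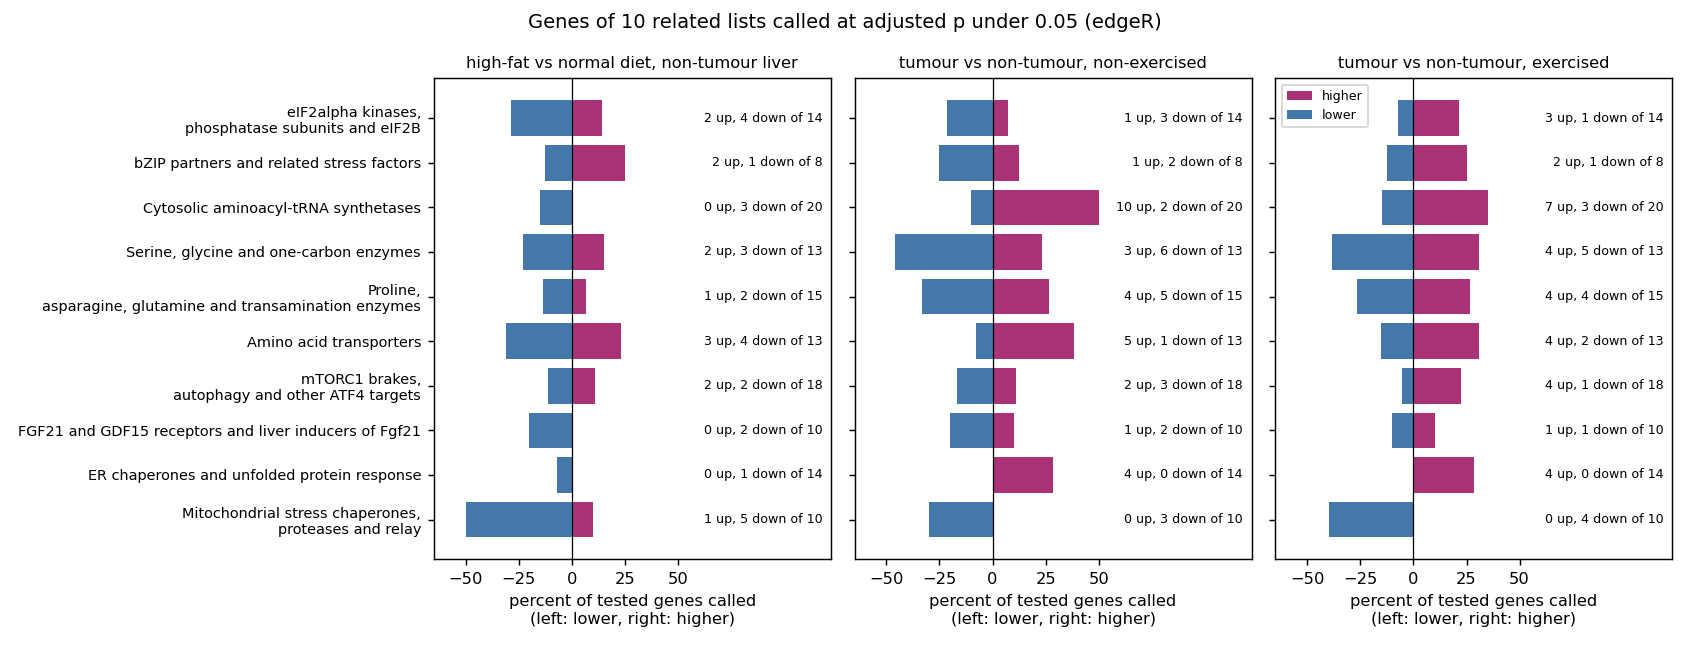
Share of the tested genes of 10 related lists (rows) that were higher (right) or lower (left) at an adjusted p under 0.05 in edgeR, in percent (horizontal axis), for the diet and both tumour comparisons; the numbers give the counts. Synthetase genes are mostly on the right in tumours and mitochondrial stress genes mostly on the left in all panels.

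Counts of these lists in tumours stand beside shares of all genes of 18% higher and 17.8% lower without exercise and 18.6% and 16% with it. Of 13 serine, glycine and one-carbon genes, 3 rose and 6 fell in non-exercised tumours, and 4 rose and 5 fell in exercised ones. Psph, which completes serine synthesis after Psat1, rose by 1.35 ± 0.22 and 1.45 ± 0.22. Mthfd2, a mitochondrial folate enzyme of growing cells, rose by 1.59 ± 0.29 and 1.46 ± 0.29, and Aldh1l2 rose by 4.00 ± 0.67 in non-exercised mice. Shmt2, which turns serine into glycine in mitochondria, fell by 0.65 ± 0.14 and 0.60 ± 0.14. The 3 serine synthesis genes Phgdh, Psat1 and Psph thus rose together while the next mitochondrial step did not.

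Among 15 tested genes of proline, asparagine and glutamine metabolism and transamination, 4 rose and 5 fell in non-exercised and 4 rose and 4 fell in exercised tumours. Aldh18a1, the first enzyme of proline synthesis, rose by 2.53 ± 0.29 and 2.06 ± 0.29, and Pck2, a mitochondrial carboxykinase and known ATF4 target, by 1.55 ± 0.26 and 1.89 ± 0.26. Cth, which makes cysteine from cystathionine, fell by 1.47 ± 0.25 and 1.48 ± 0.25, and the urea cycle enzyme Ass1 fell by 1.40 ± 0.24 and 1.17 ± 0.24. Of 13 tested amino acid transporters 5 rose and 1 fell, and 4 rose and 2 fell. Those that rose include Slc7a11, the cystine importer (3.84 ± 0.93 and 4.53 ± 1.04), Slc7a1 for cationic amino acids (1.89 ± 0.36 and 1.55 ± 0.36) and Slc1a4 for serine and alanine (1.21 ± 0.30 and 1.34 ± 0.30). Slc38a4 fell in non-exercised tumours (-0.64 ± 0.15).

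Cytosolic aminoacyl-tRNA synthetases, which charge transfer RNA and are a textbook ATF4 programme, rose in 10 and fell in 2 of 20 genes in non-exercised tumours, and rose in 7 and fell in 3 in exercised tumours. Their median changes of 0.25 and 0.19 were small. Cars (0.69 ± 0.13 and 0.69 ± 0.13) and Vars (0.60 ± 0.13 and 0.69 ± 0.13) rose in both arms, whereas Aars fell in both (-0.55 ± 0.15 and -0.60 ± 0.15). Of 14 endoplasmic reticulum chaperone and unfolded protein response genes 4 rose and 0 fell in each arm, with medians of 0.49 and 0.62. They were the sensor Ern1 (0.73 ± 0.17 and 0.89 ± 0.17), its target Xbp1 (0.61 ± 0.16 and 0.58 ± 0.16), and the chaperones Hsp90b1 and Pdia4. Of 10 mitochondrial stress genes 0 rose in tumours, and the fallen genes were 3 in the non-exercised and 4 in the exercised arm, among them the protease Clpp (-0.38 ± 0.10 and -0.37 ± 0.10).

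Upstream, the 4 eIF2alpha kinases are the inputs of ATF4. In exercised tumours Eif2ak4, which senses uncharged transfer RNA, rose by 0.71 ± 0.15 and Eif2ak3, which senses endoplasmic reticulum stress, by 0.69 ± 0.17. Eif2ak2, which senses viral RNA, rose by 0.31 ± 0.11 in non-exercised tumours (adjusted p = 0.0376) and was at 0.06 ± 0.11 in exercised ones. Eif2ak1, the haem sensor, fell by 0.31 ± 0.07 and 0.26 ± 0.07 in the 2 arms. With phosphatase subunits and eIF2B, 1 of 14 genes rose and 3 fell in non-exercised tumours, and 3 rose and 1 fell in exercised tumours, which is near or below the shares of all genes. Of 8 partner factors, Nupr1 rose in both arms (1.65 ± 0.31 and 2.50 ± 0.33) and Cebpb, a partner of ATF4 on the composite site, fell in both (-1.09 ± 0.24 and -0.81 ± 0.24). Atf3 rose in exercised tumours (1.97 ± 0.61). Of 18 mTORC1 brakes and other targets, 2 rose and 3 fell, and then 4 rose and 1 fell. Castor1, an arginine sensor, rose by 1.32 ± 0.28 and 1.48 ± 0.28, and Trib2, a relative of Trib3, by 1.29 ± 0.26 and 1.22 ± 0.26. Gabarapl1 fell in both arms (-1.11 ± 0.21 and -0.90 ± 0.21), and Sqstm1 fell in non-exercised tumours (-0.48 ± 0.12). Among receptors, Fgfr2 rose (1.24 ± 0.19 and 1.42 ± 0.20), and Klb, the FGF21 co-receptor, fell in non-exercised tumours (-0.62 ± 0.18). The interaction was called for 0% of all genes. List genes given for 1 arm only, here and above, therefore do not show a difference between the arms.

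With the diet, 14% of all genes rose and 11.9% fell, and the counts of the lists stand beside those shares. Of 20 synthetases 0 rose and 3 fell, the latter near the share of all genes, with Eprs at -0.46 ± 0.11. Transporters split into 3 that rose, with Slc1a4 at 2.24 ± 0.34, and 4 that fell, with Slc38a2, a transporter known for its induction by amino acid shortage, at -1.02 ± 0.23. Serine and one-carbon genes split into 2 and 3, with Mthfd1l at 2.61 ± 0.38 and Aldh1l1 at -0.84 ± 0.19. Of the partners, Nfe2l2, the regulator of antioxidant genes, rose by 1.14 ± 0.15 and Nupr1 by 2.04 ± 0.37, and Cebpb fell by 0.83 ± 0.24. Of the 14 genes of the kinase and phosphatase list 2 rose, Eif2ak2 (0.39 ± 0.11) and Eif2ak3 (0.53 ± 0.18), and 4 fell. Among the fallen was the kinase Eif2ak1 (-0.35 ± 0.07), the gene of smallest p in the list. Ppp1r15a, the stress-induced subunit that reverses eIF2alpha phosphorylation, was at -0.77 ± 0.21. Vldlr, a lipoprotein receptor named as an ATF4 target, rose by 3.15 ± 0.49 and Herpud1 fell by 1.17 ± 0.23, from a list of which 2 of 18 rose and 2 fell, near the shares of all genes. Mlxipl, the carbohydrate-responsive factor that drives Fgf21, fell by 0.69 ± 0.17. Of 10 mitochondrial stress genes 1 rose and 5 fell, and the 1 that rose was Dele1 (0.39 ± 0.07), which relays mitochondrial stress to Eif2ak1 in cells.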

How the data were processed

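Polyadenylated RNA of 20 frozen liver samples was sequenced. The submitters' processing notes name STAR 2.7.11a, Trim Galore 0.6.10, Subread 2.0.5 with featureCounts, and build GRCm39. The authors deposited raw read counts per gene; per the file headers the annotation was GENCODE vM27, strand setting 2 was used, and no option for multi-mapping or shared reads was named. From these counts, genes were filtered (filterByExpr, minimum count 10, minimum total 15; 14428 kept), scaled by TMM and fitted with edgeR 4.0.16 (quasi-likelihood, robust, R 4.3.3) to 5 group means, with 15 residual degrees of freedom. SE is the change divided by the root of F. Log2 CPM carries a prior count of 2. The procedure was tested on simulated counts.

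The 10 genes and all lists were chosen with earlier results of these data known. All 10 are named in every comparison. Of each list up to 4 called genes of smallest p could be named, not all of which are reported here, and symbols follow the name table (Cars, Eprs). Marker genes, Eif2ak3 with the diet and Eif2ak2 in exercised tumours are named outside this rule and were chosen after their values were seen. Pairing comes from the mouse numbers in the titles. Deviations of same-numbered pieces correlated at -0.08 to 0.21 without and 0.08 to 0.44 with exercise. A piece of another number correlated more highly for non-exercised mice 1 (0.10 against -0.08) and 4 (0.11 against 0.05). The same held for exercised mouse 1 (0.079 against 0.075). Same-numbered tumours of different arms, which are different mice, correlated at 0.47 (number 1) and 0.57 (number 3). These correlations do not establish the pairing, which rests on the titles. Alternatives were RLE and upper-quartile scaling, DESeq2 1.42.0, limma 3.58.1 (voom, mouse as random block), no filter, 1 CPM in 4 libraries, only the groups compared, a replicate block, and leaving out each library.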

Additional observations from a re-analysis of the deposited data

Results flagged for a closer look

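Among 50 sets of 4 values on the log2 CPM scale, 2 held a library set apart from the other 3 by a gap above Dixon's 95% critical share of the range; chance gives about 1 in 20 such sets. Asns in exercised tumour 1 was at 4.67 on the log2 CPM scale (25.4 CPM), and its gap was 0.838 of the range. Without it the exercised tumour change of Asns was 3.14. Trib3 in the exercised non-tumour piece of mouse 2 was at 4.57 (23.6 CPM), with a gap of 0.844, and without it the exercised tumour change of Trib3 was 3.33. No cause was tested.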

How the results depend on the processing

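The number of the 10 transcripts called kept within 1.5 times its value under all alternatives but 2: for the diet it was 5 rather than 3 in a fit of only the groups compared and with DESeq2, in each case 3 higher and 2 lower; the cause was not tested. Leaving out single libraries gave 3 to 4 calls for the diet, 3 to 5 and 5 to 8 for tumours without and with exercise, and 0 for exercise and the interaction. With the mouse as a fixed replicate block, tumours without exercise had 3 calls and those with exercise 7; beyond Trib3 it changed no call of the tumour comparisons. A block by number for the diet, where a number is not shared by a mouse, gave 4, with Psat1 called (1.80, adjusted p = 0.0301). Values that changed sign passed neither as reported nor under the alternative concerned, and the largest of them as reported was 0.49 (Gdf15 with exercise in tumours). Atf4 with diet was 0.017 with upper-quartile scaling. Atf5 with exercise in tumours was -0.0033 with RLE, -0.025 with upper-quartile scaling, -0.0047 with a filter of 1 CPM in 4 libraries, -0.0095 in a fit of only these groups and -0.0033 with DESeq2, and Sesn2 was -0.014 with upper-quartile scaling. Without single libraries the diet value ran from -0.11 to 0.0023 for Atf4 and from -0.0068 to 0.30 for Trib3. Exercise in non-tumour liver ran from -0.23 to 0.63 for Trib3, -0.24 to 0.12 for Sesn2 and -0.078 to 0.96 for Gdf15. Exercise in tumours ran from -0.029 to 0.21 for Atf4, -0.080 to 0.056 for Atf5, -0.73 to 0.058 for Psat1, -1.08 to 0.083 for Phgdh, -0.16 to 0.28 for Sesn2 and -0.15 to 0.76 for Gdf15. Over all genes, exercise gave 95 higher and 22 lower in non-tumour liver and 61 and 18 in tumours with DESeq2, where edgeR called 2 and 3 higher and 0 lower. Leaving out exercised non-tumour mouse 3 gave 66 and 6, leaving out non-exercised or exercised tumour 3 gave 27 and 4 or 39 and 2, and every other alternative gave 0 to 4 calls. Depth limits Phgdh outside tumours, with 0 to 8 reads a library.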

Other observations

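Genes whose profile over the 20 libraries was nearest to that of a member were found by the root mean square difference of log2 CPM, each gene centred on its own mean, among 12696 genes with a mean of at least 1 CPM. Only genes with a symbol that no other gene shared could be named as nearest, while medians cover all 12696. For Psat1 the nearest genes were Scd2, a stearoyl-CoA desaturase (0.53), Phgdh (0.53) and Arhgap22 (0.57), and for Phgdh they were Psat1 (0.53), Neurl1a (0.60) and Sult4a1 (0.60). The median over all genes was 2.61 for Psat1 and 2.398 for Phgdh. These serine enzymes were thus the only members to hold each other among their 3 nearest genes with a symbol. The nearest member to Trib3 was Sesn2 (0.93, with a median over all genes of 1.33). Fgf21 lay nearest to Cgref1 (0.68), Abcd2 (0.71) and Cntnap1 (0.76), with Phgdh as nearest member (1.73) and a median over all genes of 2.07. Chac1 lay nearest to Klf9 (0.39), Rapgef4 (0.40) and D230025D16Rik (0.40), with Gdf15 as nearest member (0.81). The median over all genes was 0.84 for Chac1, so Gdf15 was hardly nearer than a typical gene. Asns lay nearest to Cd276 (1.02), Fabp5 (1.05) and Cdh1 (1.07), where the median over all genes was 2.05, with Phgdh as nearest member (1.75). Atf4 lay nearest to Smarcb1 (0.17), Selenos (0.17) and Sec23ip (0.18), and Atf5 was its nearest member (0.32), with a median over all genes of 0.44. The libraries share tissue, diet and depth, so near profiles say nothing of shared control.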
